A study of Mus musculus with 4 samples.

Results

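Interferon-stimulated genes were followed through the 4 cell populations that had been sorted from intraperitoneal B16-F1-OVA melanomas. The group held 39 of the 33696 genes in the count tables, listed by name for their place in the interferon response, with no level or test of these data used in the rule. Earlier results of these data were known, however, when the members and lists were chosen. All 39 had at least 100 unique molecular identifiers (UMIs, tags that mark single captured transcripts) over the kept cells, as did 14855 genes in all. Within them 9 genes lean to type I interferon (Ifit1, Ifit2, Ifit3, Oas2, Oasl1, Oasl2, Isg15, Mx1 and Mx2) and 6 lean to interferon gamma (Gbp2, Gbp3, Gbp7, Gbp9, Irf1 and Iigp1), and the other 24 carried no such label.

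All cells came from Cxcl13-cre-tdTomato mice crossed to R26R-eGFPflox reporters, with C57Bl/6 given as the host strain, and tumors were taken on day 14 after melanoma cells had been injected. Mouse age and sex were not labelled. In these mice tdTomato marks current activity of the Cxcl13 promoter, and eGFP marks cells in which the cre has acted at any time. CD45neg CD31neg podoplanin-high cells were sorted into tdTomato+ eGFPneg, tdTomato+ eGFP+, tdTomatoneg eGFP+ and tdTomatoneg eGFPneg populations, called tdTomato-only, double-positive, eGFP-only and double-negative below, and values of 4 libraries are always given in that order. Each population was sequenced as 1 library, so a difference between libraries has no replicate check and no p-value, and its interval covers counting error only.

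Interferons act through paired receptors on the cell surface. Type I interferons signal through IFNAR1 and IFNAR2 to a complex with STAT2 and IRF9 that binds the interferon-stimulated response element (ISRE), while signals of interferon gamma through IFNGR1 and IFNGR2 end at the gamma-activated sequence (GAS). The induced genes include antiviral proteins, RNA sensors and the guanylate-binding and immunity-related GTPases, and many of them answer to both kinds of interferon.

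Promoters of 2 type I-leaning and 2 gamma-leaning genes are shown to let both elements be seen in sequence. They are those with the most UMIs among genes with a promoter in the RefSeq set used here. Iigp1, which had more UMIs than Gbp2 and Gbp7, had no promoter in that set. Each stretch is the 250 bases before the transcript start in RefSeq (GRCm38.p6), 5′ to 3′ on the strand of the gene, with capitals for matches on either strand to GAAA, any 2 bases and GAAA (ISRE) or to TTC, any 3 bases and GAA (GAS).
Isg15, chr4:156200819-156201068, minus strand: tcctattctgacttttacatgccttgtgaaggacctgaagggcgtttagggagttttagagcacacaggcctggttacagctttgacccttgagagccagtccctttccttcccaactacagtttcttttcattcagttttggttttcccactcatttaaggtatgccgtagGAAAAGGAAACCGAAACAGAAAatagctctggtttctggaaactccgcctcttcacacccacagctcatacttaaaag
Oasl2, chr5:114896684-114896933, plus strand: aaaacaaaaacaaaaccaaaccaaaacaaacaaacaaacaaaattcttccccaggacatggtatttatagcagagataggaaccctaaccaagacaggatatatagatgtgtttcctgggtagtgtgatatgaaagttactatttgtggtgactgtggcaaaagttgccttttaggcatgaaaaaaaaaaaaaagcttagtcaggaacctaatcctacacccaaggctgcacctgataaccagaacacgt
Gbp2, chr3:142620413-142620662, plus strand: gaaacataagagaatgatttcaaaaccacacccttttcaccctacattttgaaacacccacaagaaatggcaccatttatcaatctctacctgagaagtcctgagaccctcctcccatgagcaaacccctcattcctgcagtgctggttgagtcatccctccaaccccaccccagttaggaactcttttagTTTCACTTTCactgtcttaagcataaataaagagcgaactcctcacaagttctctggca
Gbp7, chr3:142530086-142530335, plus strand: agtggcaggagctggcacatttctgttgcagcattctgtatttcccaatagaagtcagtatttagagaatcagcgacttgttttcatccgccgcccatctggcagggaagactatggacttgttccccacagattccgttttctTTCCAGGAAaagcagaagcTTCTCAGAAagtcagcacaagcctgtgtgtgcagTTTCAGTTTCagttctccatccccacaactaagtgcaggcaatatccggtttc
The Isg15 promoter held 3 overlapping ISRE matches, between 78 and 57 bases before the start. Gbp2 held 1 ISRE match on the opposite strand, 59 to 50 bases before the start. Gbp7 held 1 ISRE match on the opposite strand, 53 to 44 bases before the start, and 2 GAS matches, at 106 to 98 and 87 to 79 bases. Oasl2 held no match to these letters in this window.

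A promoter was found in the table for 28 of the 39 genes. An ISRE match was present for 12 of them (42.9%), against 936 of all 27025 genes with a promoter (3.46%), and the 12 were Bst2, Ddx60, Gbp2, Gbp3, Gbp7, Ifit1, Ifit3, Igtp, Irgm1, Isg15, Rsad2 and Stat2. A GAS match was present for 8 of the 28 (28.6%), against 2197 of all genes (8.13%), and these were Bst2, Eif2ak2, Gbp7, Ifit2, Igtp, Irf1, Irf8 and Isg20. ISRE matches occurred in 3 of 6 type I-leaning and 3 of 4 gamma-leaning genes, so that this element did not separate the lists, and GAS matches occurred in 1 of 6 and 2 of 4. The windows describe letters only, and no binding was measured.

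Of 24489 barcodes 22691 passed the filters of 500 to 6000 genes and at most 10% mitochondrial UMIs, with 4952, 920, 6006 and 10813 kept cells. Median UMIs per kept cell were 9154, 8670.5, 8399 and 5607, so the double-negative library was the shallowest per cell and pairs of libraries shared 2 to 21 barcodes. Clustering without the interferon-stimulated genes gave 21476 collagen-expressing cells (4631, 863, 5773 and 10209), 622 melanoma-like cells and 593 immune-like cells. The collagen-expressing cells fell into a mesothelial-like cluster (14969 cells), a matrix fibroblast cluster (4674) and a cluster marked by Pi16 (1833, of which 1725 from the double-negative library). The mesothelial-like cluster held 87.2%, 88.8%, 91.6% and 47.8% of the collagen-expressing cells. Cells with UMIs of Xist alone were 66.1%, 64.8%, 43.8% and 57.0% of those with UMIs of Xist or of Y-linked genes but not both, so every library mixed cells of both sexes. Immune markers summed to between 12.2 and 27.4 CPM (UMIs of a gene for each 1000000 UMIs) in fibroblasts of any library, against 3891 to 5359 in immune-like cells.

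Levels in the collagen-expressing cells are given first, with all cells of a library added up before CPM was taken. The ubiquitin-like protein ISG15 is secreted and also conjugated to other proteins, and its gene stood at 683, 900.3, 741 and 774 CPM. Usp18, whose product removes ISG15 and restrains the type I receptor, stood between 22.8 and 26.7 CPM. Isg15 was thus highest in the double-positive and lowest in the tdTomato-only library, while Usp18 varied little.

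Among the antiviral effectors, the IFIT proteins bind viral RNA. Ifit1 stood at 120.3, 110.5, 108 and 92.4 CPM, Ifit2 at 13.7, 9.18, 11.8 and 11.6, and Ifit3 at 97.3, 97.5, 107 and 116. Ifit1 and Ifit3 were ordered in opposite ways, with Ifit1 lowest and Ifit3 highest in the double-negative library. Ifit3 has a near-identical copy, Ifit3b, and reads that both could hold may be split or lost in counting, so the level of Ifit3 is uncertain.

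The OAS family senses double-stranded RNA, and OASL1 and OASL2 are relatives of it. Oasl2 stood at 127, 112, 143 and 105 CPM, Oasl1 at 30.8, 23.6, 41.5 and 25.4, and Oas2 at 11.3, 9.64, 11.6 and 10.4. Oasl1 and Oasl2 were highest in the eGFP-only library. The MX GTPases block viral replication, and Mx1 is defective in most inbred strains. Mx1 stood at 3.49, 2.18, 1.74 and 2.70 CPM and Mx2 between 9.64 and 10.7 CPM.

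The remaining effectors covered a range of functions. Viperin (Rsad2), which makes a chain-terminating nucleotide, stood at 40.7, 32.2, 48.1 and 43.2 CPM, and Cmpk2, its neighbour in the genome, between 11.5 and 14.3 CPM. The nucleic acid sensor gene Zbp1 stood at 203, 199, 196 and 147 CPM, and the kinase gene Eif2ak2, which encodes PKR, between 59.6 and 71.2 CPM. Zbp1 and Eif2ak2 were lowest in the double-negative library. Tetherin (Bst2), which holds budding virus at the membrane, stood at 1584, 1814, 1883 and 1602 CPM. Ifitm3, which blocks virus entry, stood at 5530.1, 5736, 5531 and 5822 CPM and so made up the largest share of the 39-gene sum of 12996, 13511, 12755 and 11939 CPM. Isg20, an RNA exonuclease gene, ranged from 48.4 to 59.8 CPM and Rtp4 from 83 to 97.3 CPM.

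The cytoplasmic RNA sensors were lowest in the double-negative library for 3 of 4 genes. Ifih1, which encodes MDA5, stood at 78.9, 61.3, 73.6 and 68.8 CPM, and Ddx58, which encodes RIG-I, at 50.2, 48.1, 45.1 and 39.2. Ddx60 ranged from 20.7 to 27.9 CPM and Dhx58, which encodes LGP2, from 11.7 to 15.8 CPM.

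Of the transcription factors, Irf8, a regulator best known from myeloid cells, stood at 38.5, 27.6, 25.3 and 16.5 CPM, highest in the tdTomato-only and lowest in the double-negative library. Irf1, an early target of interferon gamma, stood at 137, 126, 130.2 and 134 CPM, a narrow range. Irf7, which amplifies the type I response, stood at 168, 204, 193 and 170.0 CPM. Irf9 and Stat2, parts of the ISRE-binding complex, ranged from 30.7 to 35.5 and from 49.2 to 59.4 CPM.

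The interferon-inducible GTPases, a group that takes part in defence against pathogens held in vacuoles, are given next. Gbp2 stood at 639.5, 532, 551 and 372 CPM, Gbp3 at 144, 126, 125 and 88.8, and Gbp7 at 180.3, 171, 165 and 129.7. Each was highest in the tdTomato-only and lowest in the double-negative library. Gbp9 followed the same order at its ends, with 38.0, 31.0, 29.0 and 19.2 CPM. The immunity-related GTPase genes Iigp1, Igtp and Irgm1 stood at 1612, 1693, 1164 and 951 CPM, at 337, 328, 304 and 202 CPM, and at 176, 156, 143 and 94.4 CPM. Iigp1 differed from the others in being highest in the double-positive library. GBP genes are close paralogs, and reads that fit more than 1 of them are uncertain.

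The last 5 genes have other or less settled roles. Ifi44 stood at 75.0, 73.2, 66.2 and 50.2 CPM and Parp14, a mono-ADP-ribosyltransferase gene, at 70.3, 59.0, 61.9 and 48.9, both lowest in the double-negative library. Ifi27 ranged from 203 to 236 CPM, Ifi35 from 70.1 to 83.9 CPM and Xaf1 from 129 to 149 CPM.

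**Figure D1:**
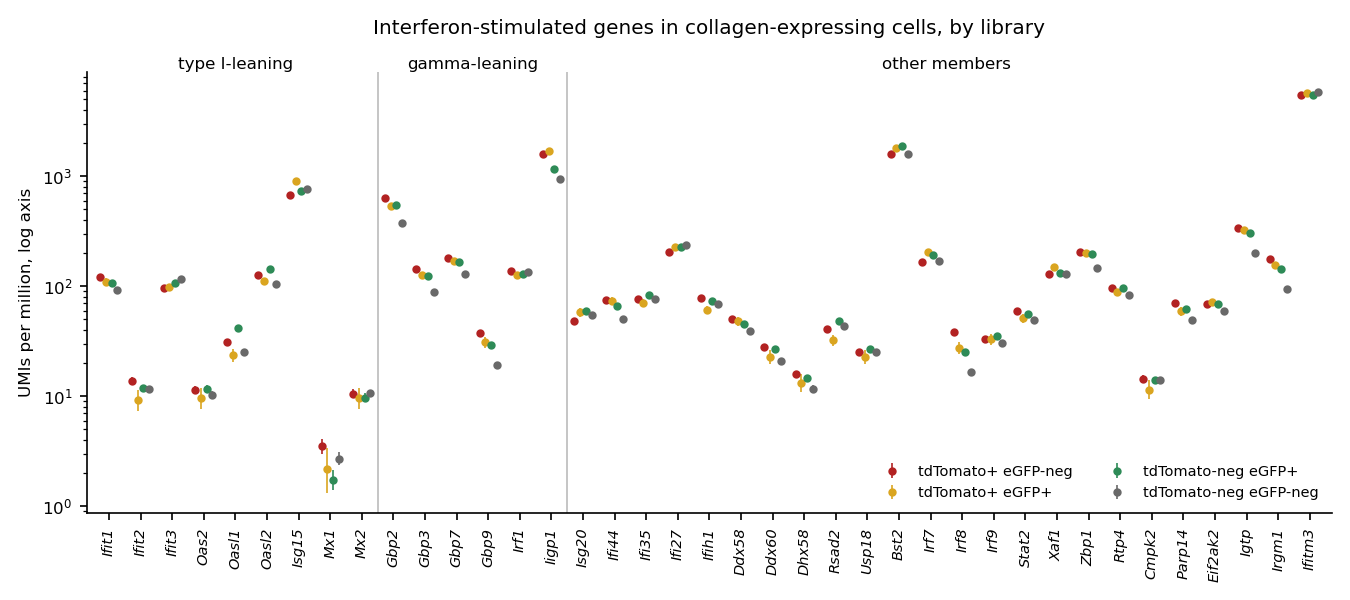
Levels of the 39 interferon-stimulated genes in collagen-expressing cells, in CPM on a log axis, with 1 point per library and exact 95% Poisson intervals for counting error. The GTPases lie lowest in the double-negative library, as with Gbp2 at 372 CPM against 532 to 639.5 CPM in the others.

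The design asks whether cells with current or past Cxcl13 promoter activity differ from cells with neither. Each reporter-positive library was therefore compared with the double-negative library, and a gene was called past the fold when the log2 ratio of CPM went beyond 0.25. The 3 comparisons share the double-negative cells, so they are not independent of each other. Of the 6 gamma-leaning genes all but Irf1 were higher in each of the 3 reporter-positive libraries, and the type I-leaning sum had log2 ratios between -0.07 and 0.15.

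In the tdTomato-only library 19 of the 39 genes were higher and 1 was lower, against 31.4% of all tested genes higher and 23% lower. In the double-positive library 15 were higher and 5 lower, against 21.1% and 28.6%. In the eGFP-only library 15 were higher and 1 lower, against 28% and 19.2%. The share of members higher lay above the share of all genes in each comparison.

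All 7 interferon-inducible GTPase genes were higher in each of the 3 libraries. Gbp2 had log2 ratios of 0.78 (0.76 to 0.80), 0.52 (0.47 to 0.56) and 0.57 (0.54 to 0.59), with exact 95% intervals for counting error. Gbp9 had 0.98, 0.69 and 0.59, Irgm1 had 0.90, 0.72 and 0.60, and Igtp had 0.74, 0.70 and 0.59. These 4 genes all showed their largest difference in the tdTomato-only library. Iigp1 had 0.76, 0.83 and 0.29. Among the 6 gamma-leaning genes 5 were higher in each library, with medians of 0.73, 0.51 and 0.42 over the 6, against medians of 0.07, -0.04 and 0.08 over all tested genes. Irf1 was the exception, with log2 ratios of 0.03, -0.09 and -0.04.

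The type I-leaning genes did not move together. Ifit1, Oasl1, Oasl2 and Mx1 were higher in the tdTomato-only library, Ifit1 alone was higher in the double-positive library, and Oasl1 and Oasl2 were higher in the eGFP-only library. Oasl1 had log2 ratios of 0.28, -0.10 and 0.71, and Ifit3 had -0.26, -0.25 and -0.12. Ifit3 was lower past the fold in the tdTomato-only and double-positive libraries, Ifit2 and Mx1 were also lower in the double-positive library, and Mx1 was lower in the eGFP-only library. The medians over the 9 type I-leaning genes were 0.24, -0.10 and 0.03.

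Among the other 24 genes Irf8 had the largest ratios, 1.22, 0.75 and 0.62, and was the single member beyond a log2 ratio of 1 in any of these comparisons. Of all tested genes 3.34%, 3.29% and 1.56% were higher and 5.29%, 8.24% and 5.43% lower beyond that ratio. Zbp1 (0.47, 0.44 and 0.42), Ifi44 (0.58, 0.54 and 0.40) and Parp14 (0.53, 0.27 and 0.34) were higher in all 3 libraries. Rsad2 and Cmpk2 were lower in the double-positive library.

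Summed levels carry the same contrast. The gamma-leaning sum was 2749.6, 2679.9, 2164.7 and 1695 CPM, with log2 ratios to the double-negative library of 0.70, 0.66 and 0.35. The type I-leaning sum was 1097.5, 1274.5, 1175 and 1148 CPM, with log2 ratios of -0.07, 0.15 and 0.03. Iigp1 and Isg15 hold much of these sums. Without them the gamma-leaning ratios were 0.61, 0.41 and 0.43 and the type I-leaning ratios 0.15, -0.00 and 0.21. The ratio of the type I-leaning to the gamma-leaning sum, which does not depend on total UMIs, was -1.32, -1.07, -0.88 and -0.56 on the log2 scale, lowest in the tdTomato-only and highest in the double-negative library.

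**Figure D2:**
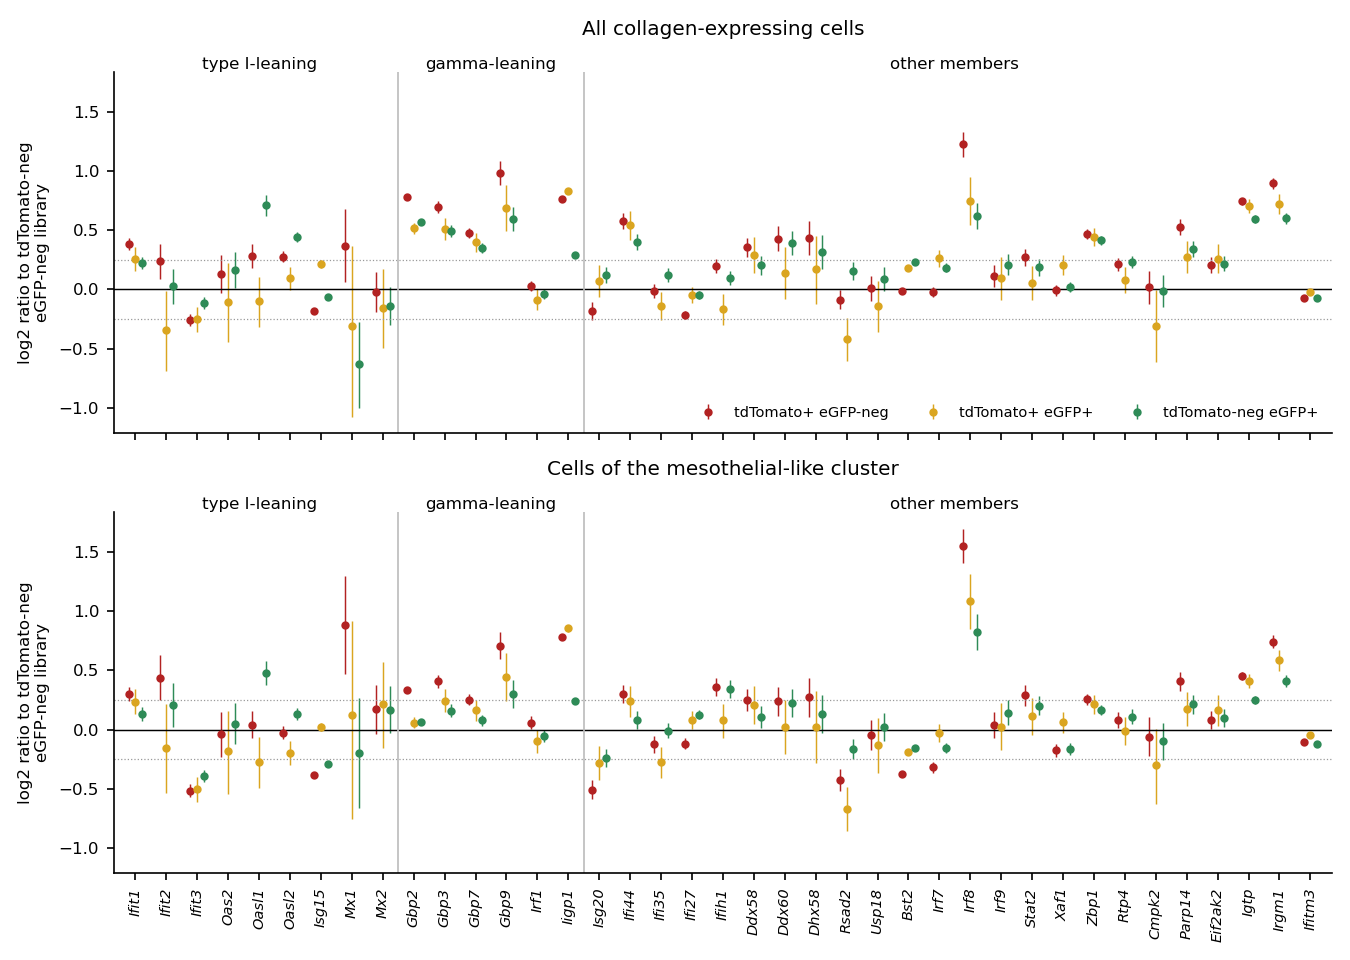
Log2 ratio of CPM in each reporter-positive library over the double-negative library for the 39 genes, in all collagen-expressing cells (upper panel) and in the mesothelial-like cluster alone (lower panel), with exact 95% counting intervals and dotted lines at 0.25 and -0.25. In the upper panel the 7 GTPase genes lie above 0.25 in all 3 comparisons, and in the lower panel Gbp2 lies between 0.06 and 0.34.

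The reporter-positive libraries held more cells of the mesothelial-like cluster, as given above, and the comparison was repeated inside that cluster, an alternative added after the data had been seen. There 18 genes were higher and 6 lower in the tdTomato-only library (38.3% and 23.2% of all tested genes), 5 and 6 in the double-positive library (28.9% and 29%), and 5 and 2 in the eGFP-only library (30.6% and 13.1%). In the double-positive and eGFP-only libraries the share of members higher was therefore below that of all genes. Gbp2, at 699.7, 577, 579.9 and 554 CPM, had log2 ratios of 0.34, 0.06 and 0.07 in this cluster. These differences were smaller than over all collagen-expressing cells. Irf8 had 1.55, 1.08 and 0.82, from 38.7, 28.0, 23.4 and 13.2 CPM, Irgm1 had 0.74, 0.58 and 0.41, and Iigp1 had 0.78, 0.85 and 0.24. The gamma-leaning sum had ratios of 0.56, 0.52 and 0.16, and of 0.31, 0.09 and 0.07 without Iigp1. The type I-leaning sum was lower than in the double-negative library, at -0.26, -0.04 and -0.18.

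Mesothelial-like cells were also defined by detection of Msln, Upk3b or Wt1, markers of the mesothelium that lines the peritoneum. This gate took 14183 collagen-expressing cells, 71.0%, 68.5%, 80.4% and 55.5% of the libraries, and left 7293 other fibroblasts. The label was checked with 8 further mesothelial markers, which summed to 209 against 66.4, 328 against 48.4, 909.5 against 168 and 1029 against 118 CPM. The gate was not sharp, since 83.9% of gated cells and 42.1% of the other fibroblasts lay in the mesothelial-like cluster, and gated cells were deeper, with a median of 9169 against 4087 UMIs. Xist-only cells made up 52.4% of the gated and 67.5% of the other cells typed as either kind below.

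Within each library UMIs were summed over gated and other fibroblasts, and the 8 sums were tested with edgeR's quasi-likelihood test with the library as a block and Benjamini-Hochberg adjustment. The 4 libraries are different populations, with an unstated number of mice in each. The study describes tumors that were collected and then sorted into these populations, so the libraries may share mice. A p therefore measures whether a difference repeated across sorted populations and not across mice. In mesothelial-like cells 15 of the 39 genes were higher and 2 were lower, against 15% of all tested genes higher and 15.5% lower. The 15 comprised 4 of 6 gamma-leaning genes, 2 of 9 type I-leaning genes and 9 of the others, and the median over the 39 genes was 0.10, against 0.00 over all genes.

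The guanylate-binding protein genes were higher in mesothelial-like cells of all 4 libraries. Gbp2 stood at 669 against 531, 578 against 369, 576 against 368 and 442 against 192 CPM, for a fitted log2 fold change of 0.58 (edgeR adjusted p = 0.0074). Gbp3 had 0.54 (edgeR adjusted p = 0.0016), Gbp9 0.48 (edgeR adjusted p = 0.0023) and Gbp7 0.39 (edgeR adjusted p = 0.0019). Summed over the 4 genes the mean log2 ratio of CPM over libraries was 0.65 ± 0.25 (SD, n = 4), with the widest gap in the double-negative library. Irgm1 rose by a smaller amount, 0.23 (edgeR adjusted p = 0.015). Iigp1, at 1665 against 1411, 1744 against 1511, 1184 against 1019.6 and 977 against 884 CPM, and Irf1 did not pass the test, with 0.08 and 0.06 (edgeR adjusted p = 0.21 and 0.50).

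Of the type I-leaning genes the OAS-like pair passed. Oasl1 stood at 33.3 against 21.5, 26.0 against 15.3, 44.1 against 22.1 and 28.5 against 17.2 CPM, the largest fitted change among the members at 0.66 (edgeR adjusted p = 0.00077). Oasl2 had 0.50 (edgeR adjusted p = 0.0017). No Ifit gene passed, with fitted values of -0.01 for Ifit1, 0.08 for Ifit2 and -0.13 for Ifit3. Isg15, at 672 against 723, 879 against 975, 731 against 817 and 794 against 722 CPM, had -0.19 (edgeR adjusted p = 0.053), with the double-negative library going the other way from the rest.

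Of the 4 RNA sensor genes Ddx60 (0.48), Ifih1 (0.39) and Ddx58 (0.22) were higher, with edgeR adjusted p of 0.0020, 0.022 and 0.034, and Dhx58 did not pass. Bst2 (0.30), Rsad2 (0.36), Ifi44 (0.36), Parp14 (0.33) and Eif2ak2 (0.28) were also higher, with edgeR adjusted p between 0.013 and 0.048. Ifi27 (-0.37) and Ifitm3 (-0.24) were lower, with edgeR adjusted p of 0.0034 and 0.0038. None of the 5 transcription factor genes passed. Of the 15 higher genes Oasl1, Oasl2, Ddx60, Gbp2, Gbp3, Gbp7, Gbp9 and Parp14 kept their call whichever library was left out, while Bst2, Rsad2, Irgm1, Eif2ak2, Ddx58, Ifih1 and Ifi44 lost it at least once. Among cells with 4000 to 16000 UMIs 15 members were higher and 3 lower, against 1987 and 2064 of all 14855 genes. Among Xist-only cells 8 members were higher and 1 lower, against 754 and 813 of all genes.

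**Figure D3:**
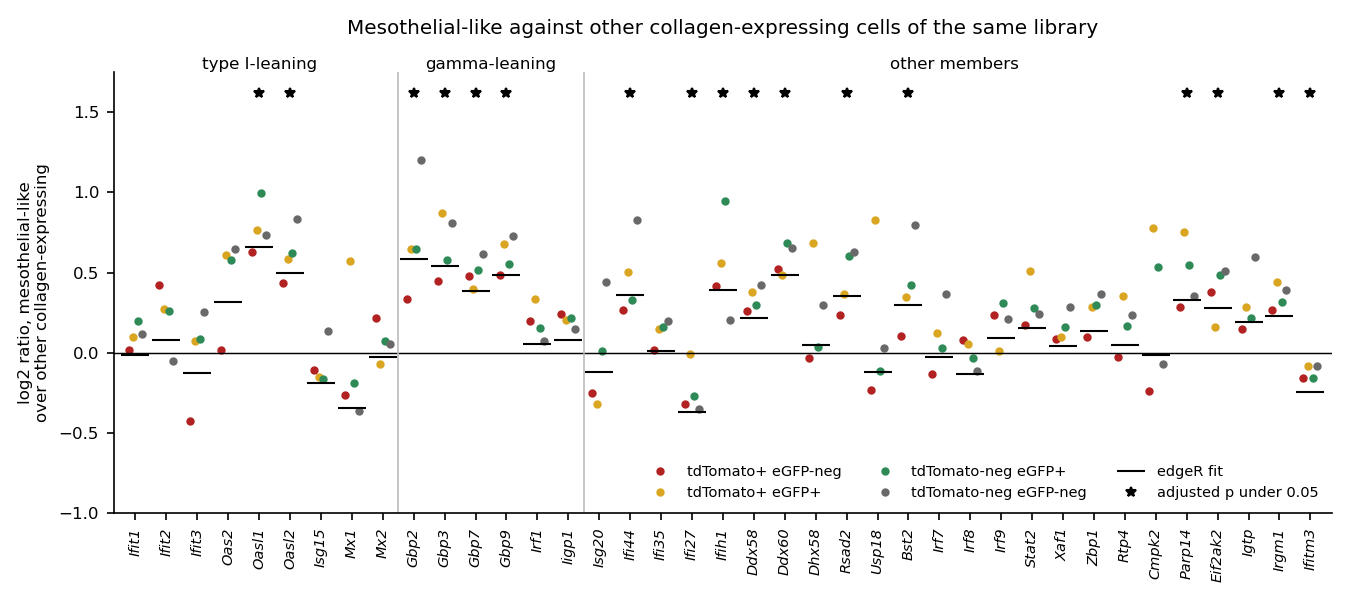
Log2 ratio of CPM in mesothelial-like over other fibroblasts for the 39 genes, with 1 point per library and the edgeR fitted value. The 4 points of each Gbp gene and of Oasl1 and Oasl2 lie above 0, and fitted values lie about 0.12 below the points because the fit scales libraries by TMM and the points use library totals.

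Which genes count as higher depends on the scale and on how mesothelial-like cells are drawn. With library totals in place of TMM the median of all genes moved by 0.12, 3609 genes were higher and 1410 lower against 2230 and 2302, and 22 members were higher. Inside the mesothelial-like cluster, an alternative added after the data had been seen, 9 members were higher and 7 lower in gated cells, among the latter Isg15, Ifit1, Ifit3, Irf7 and Isg20, against 2120 higher and 2201 lower of all 14855 genes. Between clusters the type I-leaning sum differed as well. The mesothelial-like cluster against the matrix cluster stood at 1150 against 724, 1345 against 748.5, 1216 against 721 and 1380.0 against 866 CPM for the type I-leaning sum, and at 2904 against 1648, 2815.5 against 1671, 2193 against 1851 and 1964 against 1387 CPM for the gamma-leaning sum. Gbp2 stood at 699.7 against 210.1, 577 against 199, 579.9 against 221 and 554 against 159.99 CPM, and Irf7 at 181 against 73.0, 221 against 73.9, 203 against 76.3 and 226 against 104 CPM. Irf8 did not follow, at 38.7 against 37.5, 28.0 against 25.3, 23.4 against 49.2 and 13.2 against 22.2 CPM. The clusters were drawn from these cells, though without the members, so these values are a description.

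**Figure D4:**
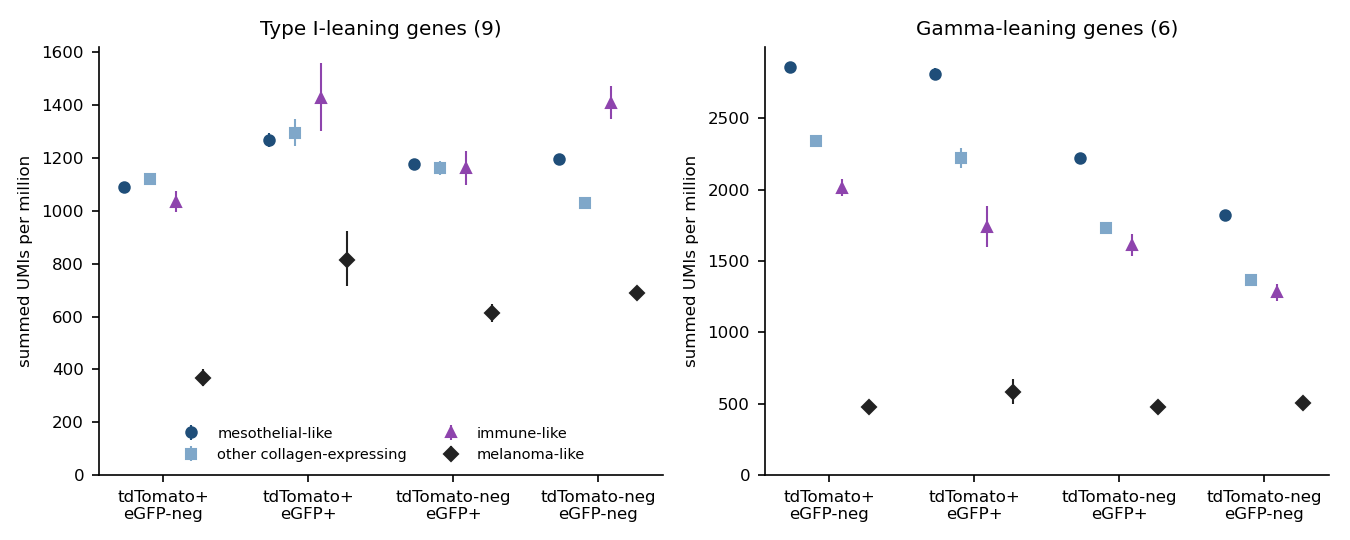
Summed CPM of the type I-leaning and gamma-leaning genes by library in mesothelial-like, other fibroblast, melanoma-like and immune-like cells, with exact 95% Poisson intervals. Gamma-leaning sums lie at 1821 to 2859 CPM in mesothelial-like and at 1369.5 to 2342 CPM in other fibroblasts. Within libraries, log2 ratios of mesothelial-like over other fibroblasts ran from 0.29 to 0.41 for the gamma-leaning sum. For the type I-leaning sum they ran from -0.04 to 0.22.

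Because every library mixed cells of both sexes, levels were also read in cells with UMIs of Xist alone against cells with UMIs of Y-linked genes alone. The labels give no number of mice of either sex, so sex and single mouse cannot be told apart, and no test was made. The 4 libraries may hold cells of the same mice, so their agreement is not a repeat across mice. The gamma-leaning sum was higher in Xist-only cells of every library, at 3211 against 2041, 3143 against 2032, 2676 against 1811 and 2060.2 against 1435 CPM, a mean log2 ratio of 0.59 ± 0.06 (SD of 4 libraries). The type I-leaning sum, at 943 against 1229.7, 1115 against 1221, 967 against 1198 and 1042 against 1008 CPM, had -0.19 ± 0.19. The mean gap in the gamma-leaning sum lay within the range of 0.35 to 0.70 seen between libraries.

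Past a log2 ratio of 0.25 in all 4 libraries, 8 of the 39 genes were higher in Xist-only cells and 1 was lower, against 4.05% and 3.81% of all tested genes. The 8 were Gbp2, Gbp3, Iigp1, Igtp, Irgm1, Irf8, Zbp1 and Ifitm3. Gbp2 stood at 744 against 397, 641 against 308, 672 against 391 and 422 against 287 CPM, a mean of 0.83 ± 0.21. Iigp1 had 0.61 ± 0.03, Igtp 0.68 ± 0.16 and Irf8 0.80 ± 0.20. Oasl1 went the other way, at 26.0 against 44.0, 21.9 against 33.2, 23.3 against 61.3 and 19.9 against 32.2 CPM, a mean of -0.86 ± 0.36. Inside the mesothelial-like cluster 7 genes were higher and 2, Oasl1 and Ifih1, were lower (background 5.06% and 5.26%). In the matrix cluster none of 37 genes was past the ratio in all 4 libraries (background 4.54% and 3.21%), and there the double-positive library held 17 and 38 such cells.

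The higher gamma-leaning levels of the reporter-positive libraries were present in both kinds of cells. In Xist-only cells the log2 ratios of the gamma-leaning sum to the double-negative library were 0.64, 0.61 and 0.38, and in Y-only cells 0.51, 0.50 and 0.34. For the type I-leaning sum they were -0.14, 0.10 and -0.11 in Xist-only cells and 0.29, 0.28 and 0.25 in Y-only cells.

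**Figure D5:**
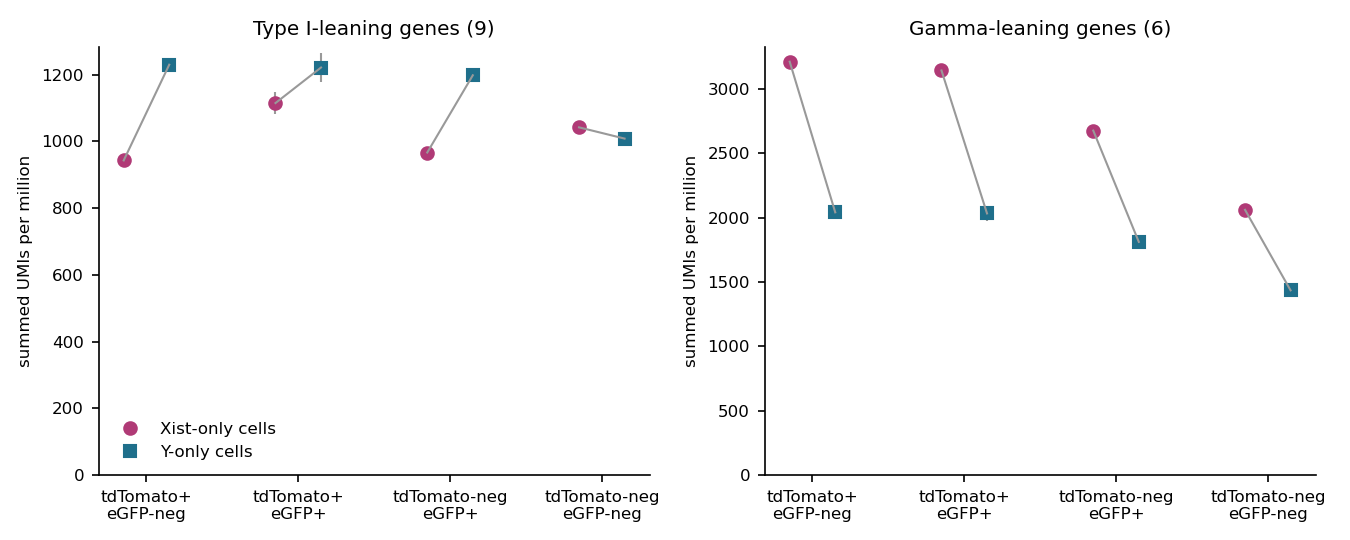
Summed CPM of the type I-leaning and the gamma-leaning genes in Xist-only and Y-only collagen-expressing cells of each library, with exact 95% Poisson intervals. The gamma-leaning sum is higher in Xist-only cells of all 4 libraries, with the double-negative library lowest for both kinds of cells.

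The spread over single cells was read after thinning each cell to 1000 UMIs, which left out 41, 11, 124 and 413 shallower collagen-expressing cells. At least 3 gamma-leaning UMIs were found in 43.6%, 42.6%, 34.2% and 24.8% of cells, with exact 95% Clopper-Pearson intervals of 42.2 to 45.1%, 39.3 to 46.0%, 33.0 to 35.5% and 24.0 to 25.7%. Without thinning the shares were 91.2%, 88.3%, 86.2% and 70.5%. At least 3 type I-leaning UMIs were found in 14.6%, 18.2%, 16.7% and 17.0% of thinned cells and in 79.2%, 77.6%, 78.2% and 63.9% of whole cells. Thinned melanoma-like cells gave 4.39% and 7.32% for the same measures, at a median of 17636.5 UMIs before thinning against 7255.5. The order of the libraries for gamma-leaning UMIs was that of the summed levels. The variance over the mean of thinned UMIs ran from 2.32 to 3.17 for the type I-leaning and from 2.27 to 2.52 for the gamma-leaning genes, above the value of 1 that counting alone gives.

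Ifit1 and Ifit3, neighbours on the chromosome, were often found in the same cells. In thinned cells Ifit3 was detected in 25.9%, 21.8%, 26.5% and 28.0% of cells with Ifit1 and in 6.54%, 7.49%, 7.45% and 8.47% of cells without it. The gamma-leaning gene Gbp2 went with Ifit3 less closely. Ifit3 was in 10.9%, 12.2%, 12.9% and 16.7% of cells with Gbp2 and in 6.82%, 7.09%, 7.03% and 7.95% of cells without it. The type I-leaning gene Oasl2 gave shares close to those of Gbp2. With Oasl2 present Ifit3 was in 12.5%, 15.7%, 13.6% and 17.3% of cells, and without it in 7.91%, 7.99%, 8.45% and 9.37%. The looser pairing was thus not particular to the gamma-leaning gene. Gbp3 was detected in 17.4%, 21.2%, 16.1% and 13.7% of cells with Gbp2 and in 11.1%, 9.40%, 9.21% and 5.88% of cells without it. These are descriptions of cells within 1 library each, and no test was run on them.

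Melanoma-like cells, the tumor cells that had passed the sort, held less of most members. Their gamma-leaning sum was 497 CPM against 2144 in collagen-expressing cells, and their type I-leaning sum 639 against 1149.9. Gbp2 stood at 96.5 against 499.8 CPM, Iigp1 at 258 against 1214, Irf7 at 30.7 against 178 and Irf8 at 3.29 against 25.1. Ifi27 was higher, at 534 against 226 CPM, and so were Rsad2 (63.6 against 43.5), Mx1 (8.37 against 2.58) and Ifit2 (14.7 against 12.1). The 3 libraries with at least 50 such cells each gave the same direction for the sums, with log2 ratios of -1.57, -0.94 and -0.74 for the type I-leaning and -2.53, -2.19 and -1.75 for the gamma-leaning genes in the tdTomato-only, eGFP-only and double-negative libraries. The removal of expected doublets took the latter over all libraries from -2.11 to -2.37.

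Immune-like cells were close to fibroblasts in the type I-leaning sum, at 1184 against 1149.9 CPM, and lower in the gamma-leaning sum, at 1720.3 against 2144 CPM. Single genes differed more. Mx1 stood at 13.8 against 2.58 CPM, Ifit2 at 41.8 against 12.1, Rsad2 at 116 against 43.5, Irf8 at 68.7 against 25.1, Oasl1 at 63.1 against 31.5 and Ifih1 at 113.5 against 72.4. Ifit2, Rsad2, Mx1, Irf8 and Ifih1 were higher in immune-like cells of each of the 3 libraries with at least 50 of them, beyond the counting intervals. These clusters were drawn from the same cells, so the differences are a description. Immune-like cells of the 4 libraries also held 206, 323, 493 and 964 CPM of the 8 further mesothelial markers. They held 21980.4, 13881, 14228 and 10502 CPM of 10 matrix fibroblast markers, against 19899.6 to 35880.1 CPM in fibroblasts and 951 to 2581 CPM in melanoma-like cells. The part of fibroblast RNA in the levels of immune-like cells was not tested.

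Genes upstream of the members were read from lists of the pathway. The 11 interferon ligand genes summed to 48 UMIs over all 21476 collagen-expressing cells. Ifnb1 had 8, 1, 17 and 9 UMIs and Ifng 3, 0, 0 and 7, which allows Ifng up to 0.344 CPM in the double-positive and 0.0539 CPM in the eGFP-only library at the limit of 3 counts. The 593 immune-like cells held 36 UMIs of Ifnb1 and 8 of Ifng, or 6.90 (4.84 to 9.56) and 1.53 (0.66 to 3.02) CPM. The ligands were thus near the limit of detection in fibroblasts.

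Both receptors were detected in all libraries. Ifnar1 stood at 36.0, 35.6, 31.0 and 27.0 CPM, Ifnar2 at 233, 211, 193 and 191, Ifngr1 at 41.9, 40.4, 37.7 and 46.4, and Ifngr2 at 53.8, 62.3, 53.6 and 54.7. Ifnar1 was lowest in the double-negative library and Ifngr1 was highest there. Il10rb ranged from 36.1 to 43.8 CPM and Ifnlr1 from 0.31 to 0.89 CPM. In mesothelial-like against other fibroblasts Ifnar2 (-0.27), Ifngr1 (-0.43) and Ifngr2 (-0.38) were lower, with edgeR adjusted p of 0.0084, 0.015 and 0.0042, and no receptor gene was higher.

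Among the Janus kinases, which pass the signal on from the receptors, Jak2 was higher in mesothelial-like than in other fibroblasts (0.36, edgeR adjusted p = 0.0024) and Jak1 lower (-0.20, edgeR adjusted p = 0.032). Of the 5 feedback inhibitor genes Socs1 (-0.64, edgeR adjusted p = 0.0013) and Socs3 (-0.40, edgeR adjusted p = 0.0034) were lower. Of 8 genes of nucleic acid sensing upstream of the interferons 2 were higher, Sting1 (0.24, edgeR adjusted p = 0.044) and Tbk1 (0.28, edgeR adjusted p = 0.028), and 1 was lower, Myd88 (-0.23, edgeR adjusted p = 0.048). In the same test, as for the receptors, 15% of all tested genes were higher and 15.5% lower. The counts of these short lists are not read as results about the lists.

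Target genes outside the 39 were counted in the same way. The library counts cover all collagen-expressing cells, and none is given for the mesothelial-like cluster alone. Of 16 further gamma-leaning targets, which include other GBP genes, 15, 15 and 10 were higher than in the double-negative library and 0 lower, where 31.4%, 21.1% and 28% of all tested genes were higher. Of 19 further type I-leaning targets 7, 3 and 3 were higher and 4, 5 and 4 lower, so that the share higher was below that of all genes in the double-positive and eGFP-only libraries. In mesothelial-like against other fibroblasts 10 of the 16 and 3 of the 19 passed the test as higher, against 15% of all tested genes. As lower, 1 and 2 passed, against 15.5%. The summed CPM of the further gamma-leaning targets did not follow this count. Its mean log2 ratio over libraries was -0.07 ± 0.15 (SD, n = 4), from -0.26 to 0.09.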

How the data were processed

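Droplet 3′ libraries of 4 sorted populations from B16-F1-OVA tumors were used, 1 library per population. The deposited matrices hold raw UMI counts per gene and cell barcode, made by the authors with Cell Ranger. The file headers give version 8.0.0 and the submitters' processing notes give 10.0.0, with GRCm39 as the build. No value had been normalized.

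Barcodes were kept if they had 500 to 6000 detected genes and no more than 10% mitochondrial UMIs. They held 49581776, 9351387, 58778233 and 83613839 UMIs. Cells were clustered with Seurat 5.3.0 on 2000 variable genes from which the interferon-stimulated genes had been removed. The genes of the pathway lists, Xist and the Y-linked genes were removed as well, which left 1976. Clusters were named from marker lists. Doublets were kept, since Scrublet (scanpy 1.11.5) called almost none, and removal of the expected share was an alternative.

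Levels are UMIs summed over cells for each 1000000 UMIs (CPM), with exact 95% Poisson intervals that cover counting error only. Between libraries no test was possible and a log2 ratio of 0.25 was the limit. Mesothelial-like and other fibroblasts were compared with edgeR 4.0.16 (TMM, quasi-likelihood, library as a block, 8 sums, 3 residual degrees of freedom, Benjamini-Hochberg limit 0.05) over the 14855 genes with at least 100 UMIs, with DESeq2 1.42.0 as an alternative. The block rests on both sums of a pair coming from the same library. On simulated counts for this comparison, with 200 of 14855 genes changed, 50% were recovered at a log2 change of 0.5 and 80% at 1. The simulated counts used the same dispersion (0.0085) for every gene, so these shares need not hold for the real genes. Depth, scaling, gate, doublets, cycling cells, sex-linked UMIs and each library were varied. All 39 genes are named. Pathway lists are given by counts, with receptors, Ifng, Ifnb1 and the genes that passed in lists of at most 5 named. Members of larger lists are named in addition where few passed. Promoters came from RefSeq (GRCm38.p6), another build than the counts, and were matched by symbol. The members and lists were chosen with earlier results of these data known. One further pathway gene, and the count of its list, are not reported here.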

Additional observations from a re-analysis of the deposited data

Results flagged for a closer look

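Some genes were higher than in the double-negative library in 1 kind of cell and lower in the other, beyond the counting intervals, when Xist-only and Y-only cells were read apart. In the tdTomato-only library Ifit2 had log2 ratios of -0.41 in Xist-only and 0.98 in Y-only cells, Ifit3 had -0.64 and 0.39, and Usp18 had -0.32 and 0.54. In the eGFP-only library Ifit2 had -0.69 and 0.48, Ifit3 had -0.38 and 0.26, Ifih1 had -0.44 and 0.35, and Rsad2 had -0.41 and 0.36. Each pair has 1 library on either side, the difference was not tested, and both sets of ratios use the same double-negative library. Sex and single mouse cannot be told apart here. The clusters were also mixed unequally. In the double-negative library 904 of 2605 Xist-only and 1192 of 1962 Y-only collagen-expressing cells lay in the mesothelial-like cluster. The Pi16 cluster held 665 and 10 of these cells. The part of this mix in the ratios was not tested.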

How the results depend on the processing

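Values are in the order tdTomato-only, double-positive, eGFP-only and, where given, double-negative. The gamma-leaning sum, with Iigp1 in it, stayed above the double-negative library in every alternative listed next. Its log2 ratios were 0.64, 0.61 and 0.38 in Xist-only cells, 0.51, 0.50 and 0.34 in Y-only cells, 0.75, 0.69 and 0.43 in cells with no cycling UMI, 0.75, 0.71 and 0.41 over all kept cells, 0.56, 0.52 and 0.16 inside the mesothelial-like cluster, and 0.72, 0.70 and 0.38 as a mean over cells. Without Iigp1, cells of the mesothelial-like cluster thinned to 1000 UMIs held means of 1.2645, 1.0833, 1.1082 and 1.1124 gamma-leaning UMIs. There the double-positive and eGFP-only libraries did not lie above the double-negative library. The type I-leaning sum changed sign with the cells used. Its ratios were -0.14, 0.10 and -0.11 in Xist-only cells, 0.29, 0.28 and 0.25 in Y-only cells, -0.025, 0.20 and 0.10 with no cycling UMI, -0.048, 0.19 and 0.056 over all kept cells, -0.26, -0.037 and -0.18 inside the mesothelial-like cluster, and -0.15, 0.10 and -0.00035 as a mean over cells. With expected doublets removed the tdTomato-only ratios were -0.086 (type I-leaning) and 0.72 (gamma-leaning), the melanoma-like ratios -0.95 and -2.37, and the immune-like gamma-leaning ratio -0.40.

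Counts of members past the fold moved too. The shares of all tested genes are given above for all collagen-expressing cells and for the mesothelial-like cluster only. The other counts here have no such share beside them, so they are not read as results about the members. Lower members were 8 in the tdTomato-only and 6 in the eGFP-only library in Xist-only cells. In Y-only cells they were 0 and 0, with 28 higher in the eGFP-only library. Lower members in the double-positive library were 8 with no cycling UMI and 2 over all kept cells, where the tdTomato-only library also had 2. As a mean over cells 3, 8 and 3 were lower. Inside the mesothelial-like cluster 6 were lower in the tdTomato-only library, 5 higher in the double-positive library, and 5 higher and 2 lower in the eGFP-only library. Over all collagen-expressing cells, Irf8 alone (1 gene) was higher beyond a log2 ratio of 1 in the tdTomato-only library. There 0 were higher in the others or lower in any.

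In mesothelial-like against other fibroblasts the fit with no replicate block left 1 member higher and 0 lower, since differences between libraries then enter the spread, and the library pairs the sums. Leaving out 1 library gave 10 to 13 higher and 2 to 4 lower, against 1530 to 1797 and 1530 to 2004 of all genes. Without the double-negative library Isg15 and Isg20 were also lower. In Xist-only cells 8 were higher and 1 lower (754 and 813 of all genes), and inside the mesothelial-like cluster 9 and 7 (2120 and 2201). With a gate of 2 UMIs 5 were lower (2583 of all genes). The mesothelial-like cluster against the other clusters gave 29 higher and 1 lower, against 2970 and 2485 of all genes. This contrast turned 7 genes, Isg15 (0.73), Isg20 (0.96), Ifit1 (1.00), Ifit3 (0.95), Irf7 (1.41), Cmpk2 (0.71) and Ifitm3 (0.28). The type I-leaning sum was then 0.74 and the gamma-leaning sum 0.58, against -0.10 and 0.27 inside the cluster, 0.23 for the gamma-leaning sum in Y-only cells and 0.44 with no cycling UMI. The cause was not tested. Over all genes no block gave 580 higher and 380 lower, and library totals 3609 and 1410.

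The balance of the sums was -1.46, -1.40, -1.20 and -0.99 without Isg15 and Iigp1, -1.77, -1.495, -1.47 and -0.98 in Xist-only cells, and -0.73, -0.73, -0.60 and -0.51 in Y-only cells. Thinned to 2000 UMIs, 33.0%, 39.3%, 37.4% and 35.4% of cells had at least 3 type I-leaning UMIs and 69.4%, 67.9%, 61.2% and 49.1% at least 3 gamma-leaning UMIs. Depth limits Mx1, Ifnlr1 and the ligands most, and the double-positive library is the smallest.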

Other observations

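The 9 type I-leaning genes differed among themselves in the Pi16 cluster, which lay almost wholly in the double-negative library. In that library their sum was 964 CPM in the Pi16 cluster against 866 in the matrix cluster, and after thinning to 1000 UMIs the means were 0.975 and 0.988 UMIs per cell. Isg15 stood at 467 against 606 CPM. Ifit2 stood at 39.96 against 10.1 CPM, a log2 ratio of 1.99 (1.69 to 2.28 by counting), Ifit1 at 163 against 70.4, Ifit3 at 148 against 73.1 and Mx2 at 27.3 against 11.2. Oasl1 (22.9 against 17.2) and Oasl2 (83.2 against 65.6) differed less, and for Oas2 (8.27 against 8.68) and Mx1 (4.68 against 3.51) the counting interval of the ratio held 0. Of the other members Cmpk2 (35.8 against 9.79 CPM) was higher and Irf8 (4.68 against 22.2) and Ifi44 (11.8 against 35.4) were lower, genes chosen after their values were seen. Pi16 cells were shallow, with a median of 1723 against 7141 UMIs, and 98.5% against 57.7% of typed cells were Xist-only. The part of this split was not tested, and no test between the clusters was run.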
